A study of Mus musculus with 15 samples.

Results

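Mitochondrial ribosomal proteins are the protein parts of the mitoribosome, the ribosome inside mitochondria. They were taken as every gene symbol of the deposited count table that begins with Mrpl or Mrps followed by a digit, with pseudogenes left out and with at least 10 counts in at least 3 libraries. The pattern matched 83 symbols, of which 5 were pseudogenes, and 78 of the 36144 genes of the table were members, 49 named for the large subunit (Mrpl) and 29 for the small subunit (Mrps). All 78 members had 10 or more counts in every library and passed the filter on low counts, and they lie on 17 chromosomes.

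The mitoribosome translates the few messenger RNAs that mitochondrial DNA encodes, all of them for subunits of the respiratory chain and of ATP synthase. Its ribosomal RNAs are encoded in mitochondria, while every ribosomal protein is encoded in the nucleus, translated in the cytosol and imported. Many of these proteins descend from bacterial ribosomal proteins, and others are particular to mitochondria. The family is often read together with growth programs such as that of Myc, a transcription factor that drives ribosome production.

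Bulk RNA was sequenced from 15 mouse stomach samples, 3 of normal tissue and 12 of tumors, with 3 tumors at each of 4 sites: antrum, corpus, and the cardia on its greater curvature side or its lesser curvature side. All 5 groups, the normals included, were labelled C57BL/6 and carried 4 alleles. Pou2f3-CreERT drives a tamoxifen-activated Cre from the promoter of the tuft cell regulator Pou2f3. The alleles Rb1fl/fl and Trp53fl/fl let Cre remove these tumor suppressors, and LSL-MycT58A lets it switch on a stabilized Myc. The mice were 7 to 8 weeks old, received tamoxifen at 50 mg/kg into the abdomen for 1 day, and were sampled 5 weeks after it. The labels call the 3 samples of each group biological replicates. The sources used here do not give the part of the stomach that gave the normal tissue or whether samples came from separate animals. A p-value here therefore reflects the spread among these samples alone, which may not be that among animals.

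Libraries held 7957165 to 21564972 counts. Normals carried the markers of stomach tissue, with summed levels of 62309 to 137648 CPM for chief cells, 5317 to 10230 CPM for parietal cells and 4633 to 6519 CPM for smooth muscle (CPM, counts per 1e+06 of the scaled library). In tumors the smooth muscle sum was 194 to 1194 CPM, below all normals in 12 of 12. Chief and parietal marker sums stayed high in 2 tumors, greater curvature 2 (44952 and 3405 CPM) and corpus 1 (81858 and 7756 CPM), against at most 20450 and 2843 CPM in the 10 other tumors. The count of members called over all tumors and those of the related gene lists are given with and without these 2 libraries, and for members described singly a call over all tumors is noted where it changed without them. In bulk tissue, fewer cells of a type and less RNA per cell cannot be told apart, and the part of changing tissue makeup in the results below was not tested.

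Short promoter sequences are shown first because the rule did not use them. No single motif searched was in more than 37.7% of the member promoters. Of the 78 members, 69 had a promoter in the RefSeq table (GRCm38.p6), reaching from 250 bases before to 50 bases after the start site. The windows below lie upstream of the start and outside annotated transcripts, run 5′ to 3′ on the gene's strand, and show the searched motif in capitals: the ETS motif CCGGAAG or its reverse complement CTTCCGG, the NRF1 motif GCGCATGCG, and the E-box CACGTG, to which Myc with its partner Max can bind.
Mrps22 (ETS), chr9:98601680-98601700, minus strand: acctctcgagCCGGAAGttgc
Mrps27 (ETS), chr13:99344728-99344754, plus strand: ggtaggaccaCTTCCGGcggaggcggg
Mrpl22 (ETS and NRF1), chr11:58171601-58171649, plus strand: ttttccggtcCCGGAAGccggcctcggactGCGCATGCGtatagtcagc
Mrpl20 (E-box), chr4:155802835-155802860, plus strand: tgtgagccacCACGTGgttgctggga

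The ETS motif, counted on both strands, was in 26 of 69 member promoters (37.7%), against 17.2% of the 12114 tested genes with a promoter and 9.9% of the 27025 genes of the table with a promoter. The NRF1 motif, bound by a factor known for genes of mitochondrial function, was in 7 members (10.1%), against 3.5% of tested genes. The motif of YY1, searched as AAGATGGCG on both strands, was in 8 members (11.6%), against 3.0% of tested genes. At least 1 of these 3 motifs was in 36 members (52.2%), against 22.2% of tested genes. The E-box was in 5 members (7.2%), against 11% of tested genes. These letters are a description of the windows and not a record of binding, and no test of them was made. The ETS motif was in 6 of the 21 members with a promoter that were called higher in tumors (28.6%) and in 20 of the other 48 (41.7%), and the E-box in 1 (4.8%) and 4 (8.3%).

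Position was a further feature that the rule did not use. In GENCODE M21, 18 of 78 members (23.1%) had a protein-coding gene on the opposite strand starting upstream within 1000 bases, against 8.7% of the tested protein-coding genes. Some of these neighbors had much larger changes than the member. Mrpl57 starts 49 bases from Ska3, a mitotic gene, and Mrpl51 100 bases from Ncapd2, a condensin gene. Between all tumors and normals Ska3 differed by 2.65 on the log2 scale (edgeR adjusted p = 0.00124) and Ncapd2 by 2.66 (edgeR adjusted p = 0.00286), while the values were 0.10 for Mrpl57 (edgeR adjusted p = 0.667) and -0.05 for Mrpl51 (edgeR adjusted p = 0.723). These pairs were picked after their values were seen.

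Part of the family was higher in the tumors, by modest folds, and no member was called lower. Between all tumors and normals, 24 of 78 members were called higher at an adjusted p under 0.05 over all 16224 tested genes, or 30.8%, where 16.2% of all tested genes were called higher. No member was called lower, where 15.7% of all tested genes were, although 4 had a lower value at an unadjusted p under 0.05 and DESeq2 called 4 lower (19.2% of all genes) and 29 higher (22.2%). The median log2 change was 0.31 over the members and -0.04 over all tested genes, and 59 of 78 members had a positive change. The called members ranged from a 1.26-fold to a 1.77-fold higher level.

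**Figure D1:**
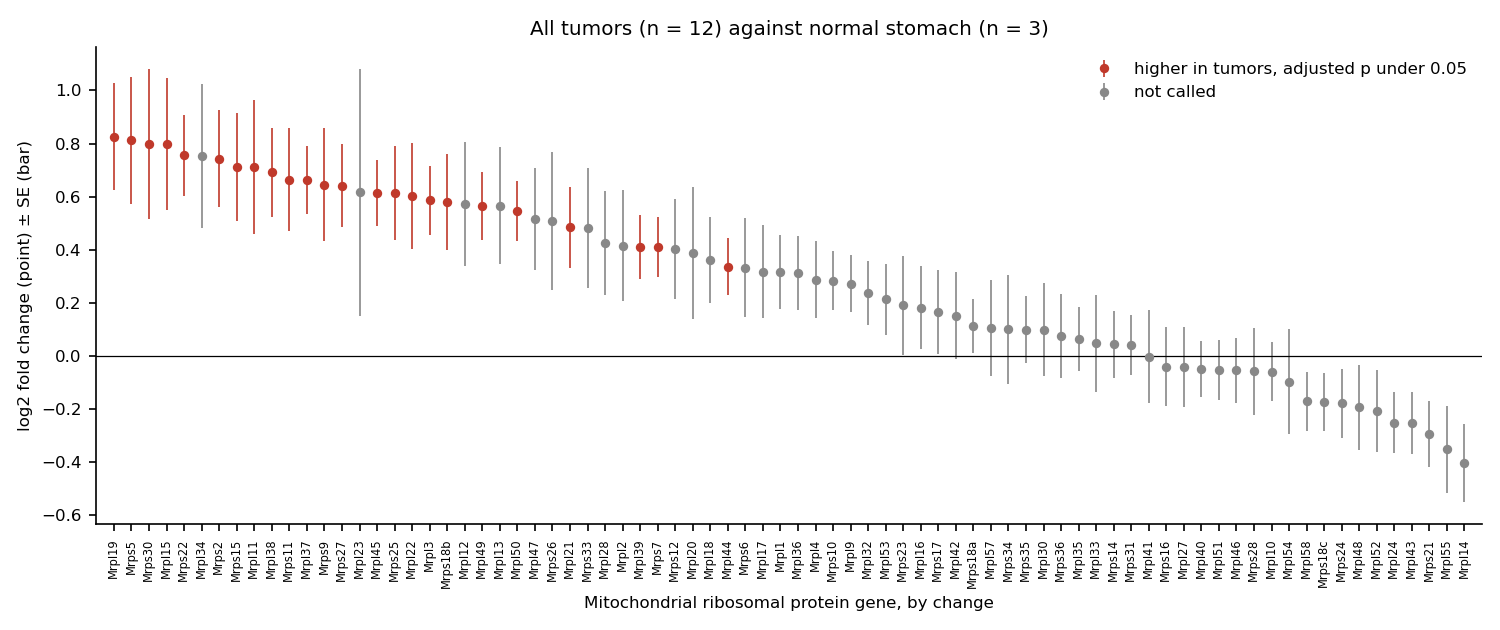
Log2 fold change in all tumors (n = 12) against normals (n = 3) for each of the 78 members, ordered by change, with bars for the standard error. The 24 red points are called higher and lie between 0.33 and 0.83, and the 19 points below 0 are gray because none was called.

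The size of these changes depended on the scaling. The members took 0.201% to 0.209% of all counts in normals and 0.235% to 0.447% in tumors. Their summed TPM (transcripts per 1e+06, a level that accounts for length) was 3281, 3243 and 3146 in the 3 normals. In tumors it ran from 3777 in greater curvature 2 to 7004 in lesser curvature 1 with a median of 5707, and all 12 tumors lay above all normals. The tumor mean of summed TPM was 1.75 times that of normals, and the tumor mean of summed CPM, which uses the scaled library sizes, was 1.23 times. In a fit of log2(TPM + 1) the median change of the members was 0.83 and that of all genes 0.43, so the members' median was 0.40 above that of all genes on that scale and 0.36 above it on the CPM scale. All 78 members had a positive change on the TPM scale and limma called 63 of them higher (80.8%), where it called 37.3% of all genes higher, so the direction of each negative member below holds only relative to the scaled library.

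The mean log2 CPM over the 78 members was 4.97, 4.96 and 4.90 in the normals. In tumors it ran from 4.92 in greater curvature 2 to 5.49 in antrum 1, with a median of 5.24. The 11 other tumors lay above all normals, and greater curvature 2 lay among them. That library had the lowest tumor value for 42 members, and antrum 1 the highest for 35. Over the 24 called members the mean log2 CPM was 4.77 to 4.84 in normals and 5.05 to 5.74 in tumors, without overlap, as their choice favors. Myc was 39.1 to 98.4 CPM in normals and 95.2 to 765 CPM in tumors, lowest in corpus 1 and greater curvature 2 (103 CPM) and highest in lesser curvature 1. The log2 change of Myc was 2.13 (SE 0.56, edgeR adjusted p = 0.0158), and its call was lost without normal 2 or without normal 3 (edgeR adjusted p up to 0.0754). The part of the MycT58A allele in this Myc level was not determined. The summed level of 8 proliferation markers moved the same way, at 309 to 506 CPM in normals and 710 CPM (greater curvature 2) to 2156 CPM in tumors. The part of either in the members' level was not tested.

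**Figure D2:**
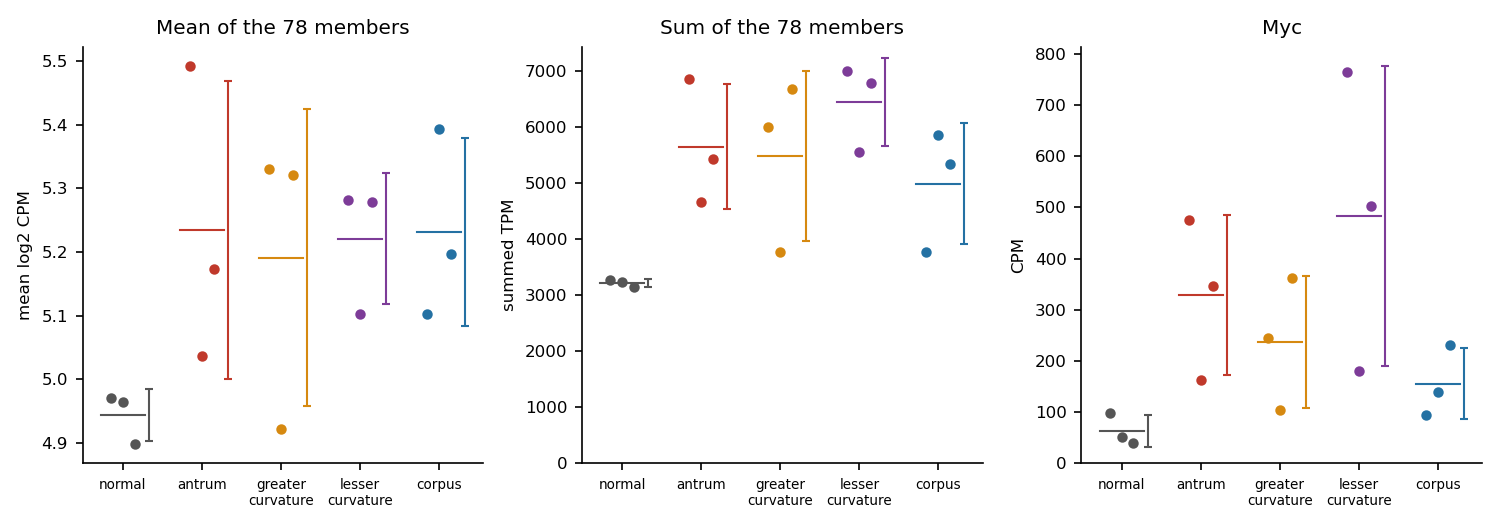
Mean log2 CPM of the 78 members (left), their summed TPM (middle) and Myc CPM (right) in each sample by group, with points for samples, a horizontal line for the group mean and a bar for ± SD (n = 3). The normals lie within 4.90 to 4.97 on the left panel, and greater curvature 2 at 4.92 is the tumor that lies among them.

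Counted sample by sample, 20 members (25.6%) had all 12 tumors above all 3 normals in CPM, where 9.58% of tested genes did, and no member had all 12 tumors below, where 6.65% of tested genes did. Of those 20 members 19 were among the called, and the other was Mrps10. Without greater curvature 2 and corpus 1, 30 members had every remaining tumor above every normal. The share of all tested genes that did so was not counted, so this rise cannot be set against that of other genes. Without these libraries 32 members were called higher, among them all 24 called with them. In that fit 21.7% of all tested genes were called higher.

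The 3 normals set much of the precision. The count of members called higher was 11 without normal 1, 14 without normal 2 and 7 without normal 3, where 10.7%, 8.14% and 6.89% of all tested genes were called higher. Leaving out 1 tumor gave 19 to 32, where 12.8% to 20.5% of all tested genes were called higher. Of the 24 members, 7 were called without each of the 15 libraries in turn: Mrpl3, Mrpl37, Mrpl45, Mrpl49, Mrpl50, Mrps22 and Mrps27. They are also the 7 called without normal 3, where 6.89% of all tested genes were called higher. The share of all tested genes called in all 15 fits was not counted.

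In the small subunit, 6 of 15 members with bacterial homologs were called higher and 4 of 11 mitochondria-specific members, where 16.2% of all tested genes were. The medians were 0.33 and 0.48 on the log2 scale. Mrps22, a mitochondria-specific protein, was 13.2, 20.8 and 18.8 CPM in the normals. In tumors Mrps22 ran from 25.4 CPM in greater curvature 2 to 35 CPM in antrum 1 with a median of 30.4 CPM. Every tumor lay above every normal, also in the tumors that kept chief and parietal markers. Mrps22 was 1.69-fold higher (log2 change 0.76, SE 0.15, edgeR adjusted p = 0.00547).

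Mrps5, a bacterial homolog near the messenger RNA entrance of the small subunit, had the second highest change of the family. It was 46.8, 41.9 and 47.8 CPM in normals and 46.8 CPM (greater curvature 2) to 112 CPM (lesser curvature 1) in tumors, with a median of 77.7 CPM. Of the tumors 11 lay above all normals, and greater curvature 2 lay among them. The log2 change was 0.81 (SE 0.24, edgeR adjusted p = 0.0241), and the call was lost without 3 of the libraries in turn (edgeR adjusted p up to 0.0945, without normal 2). Mrps2 (0.74, SE 0.18, edgeR adjusted p = 0.0118) and Mrps15 (0.71, SE 0.20, edgeR adjusted p = 0.0212), both bacterial homologs, rose as well, each losing its call without 2 of the libraries (edgeR adjusted p up to 0.0516 and 0.0936). Mrps12, which sits at the decoding centre, had a change of 0.40 that was not called (edgeR adjusted p = 0.114).

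The bacterial protein S18 has 3 relatives in mammalian mitochondria, and their values differed. The subunit counts place Mrps18a and Mrps18b with the mitochondria-specific members and Mrps18c with the bacterial homologs. Mrps18b, in the small subunit, had a normal mean of 34.4 CPM ± 5.1 (SD, n = 3) and a tumor mean of 51.6 CPM ± 10.2 (SD, n = 12), and 11 of the 12 tumors exceeded every normal. Its log2 change was 0.58 (SE 0.18, edgeR adjusted p = 0.0300), and it lost the call without 3 of the libraries in turn (edgeR adjusted p up to 0.139, without normal 2). Mrps18a, which belongs to the large subunit in spite of its name, averaged 30.2 CPM ± 1.5 and 32.6 CPM ± 2.5 (edgeR adjusted p = 0.390). Mrps18c, in the small subunit, averaged 30.0 CPM ± 2.8 and 26.6 CPM ± 2.1 (edgeR adjusted p = 0.222). The differences between the 3 genes were not tested.

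Among large subunit members, 6 of 30 with bacterial homologs were called higher and 8 of 21 mitochondria-specific members, where 16.2% of all tested genes were. The medians were 0.34 and 0.11. The smallest adjusted p of the family was that of Mrpl37, a mitochondria-specific protein (chromosome 4, 107055874 to 107066868, GRCm38). Mrpl37 was 39.3, 40.7 and 34.3 CPM in normals and 49.8 CPM (greater curvature 2) to 71.0 CPM (corpus 2) in tumors, with a median of 61.7 CPM. Every tumor lay above every normal, and the level was 1.58-fold higher (log2 change 0.66, SE 0.13, edgeR adjusted p = 0.00462).

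Mrpl19, a bacterial homolog, had the highest log2 change, 0.83 (SE 0.20, edgeR adjusted p = 0.0115). Its normals were 23.4, 26.9 and 24.1 CPM, and its tumors ran from 30.1 CPM in greater curvature 2 to 59.0 CPM in lesser curvature 1, all above the normals. The call was lost without normal 3 (edgeR adjusted p = 0.0520). Mrpl15, a further bacterial homolog, rose by 0.80 (SE 0.25, edgeR adjusted p = 0.0310). All of its 12 tumors exceeded the normals, and it lost the call without 3 of the libraries in turn (edgeR adjusted p up to 0.0953, without normal 3). Mrpl34, with a change of 0.75 (SE 0.27), was not called (edgeR adjusted p = 0.0524). It was called without 4 of the 15 libraries in turn (edgeR adjusted p down to 0.0232, without greater curvature 2) and without greater curvature 2 and corpus 1 together (edgeR adjusted p = 0.0200).

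The stalk of the large subunit recruits translation factors. Mrpl11, at its base, rose by 0.71 (SE 0.25, edgeR adjusted p = 0.0488), the weakest call of the family, which was lost without 11 of the 15 libraries in turn (edgeR adjusted p up to 0.167). Mrpl12, the stalk protein, was 85.1, 87.8 and 86.2 CPM in normals and 76.3 CPM (greater curvature 2) to 197 CPM (antrum 1) in tumors. Of the tumors 11 lay above all normals and greater curvature 2 lay below them, and the change of 0.57 (SE 0.23) was not called (edgeR adjusted p = 0.0759). Mrpl12 was called without 2 of the libraries in turn (edgeR adjusted p down to 0.0239) and without greater curvature 2 and corpus 1 together (0.66, edgeR adjusted p = 0.0225). Mrpl10, which anchors the stalk, had a change of -0.06 (edgeR adjusted p = 0.683).

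The exit of the peptide tunnel lies against the inner membrane, where Mrpl45 anchors the ribosome. Of 9 members there, 4 were called higher (Mrpl22, Mrpl39, Mrpl44 and Mrpl45), where 16.2% of all tested genes were. Mrpl45 was 29.7, 28.3 and 32.8 CPM in normals and 40.3 CPM (corpus 1) to 58.8 CPM (antrum 1) in tumors, without overlap. The log2 change of Mrpl45 was 0.61 (SE 0.12, edgeR adjusted p = 0.00547). Mrpl44, a protein with a ribonuclease III fold, rose by 0.33 (SE 0.11, edgeR adjusted p = 0.0336), the smallest change among the called. All 12 tumors exceeded the normals, and the call was lost without 7 of the libraries in turn (edgeR adjusted p up to 0.145, without normal 3). Mrpl24, at the same site, had a change of -0.25 (edgeR adjusted p = 0.108).

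The central protuberance, which contacts the small subunit, had 2 of 8 members called higher, where 16.2% of all tested genes were. The 2 members were Mrps30, a large subunit protein in spite of its symbol, and Mrpl38. Mrps30 was 31.2, 28.7 and 23.8 CPM in normals and 31.5 CPM (corpus 1) to 77.3 CPM (antrum 1) in tumors, so that the lowest tumor lay just above the highest normal. Its change of 0.80 (SE 0.28, edgeR adjusted p = 0.0479) lost the call without 10 of the 15 libraries in turn (edgeR adjusted p up to 0.170, without normal 3). Mrpl38 rose by 0.69 (SE 0.17, edgeR adjusted p = 0.0111), and its call was lost without normal 3 (edgeR adjusted p = 0.0581). The median of the 8 members was -0.05, and Mrpl58, a peptidyl-tRNA hydrolase built into the ribosome, had a change of -0.17 (edgeR adjusted p = 0.238).

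**Figure D3:**
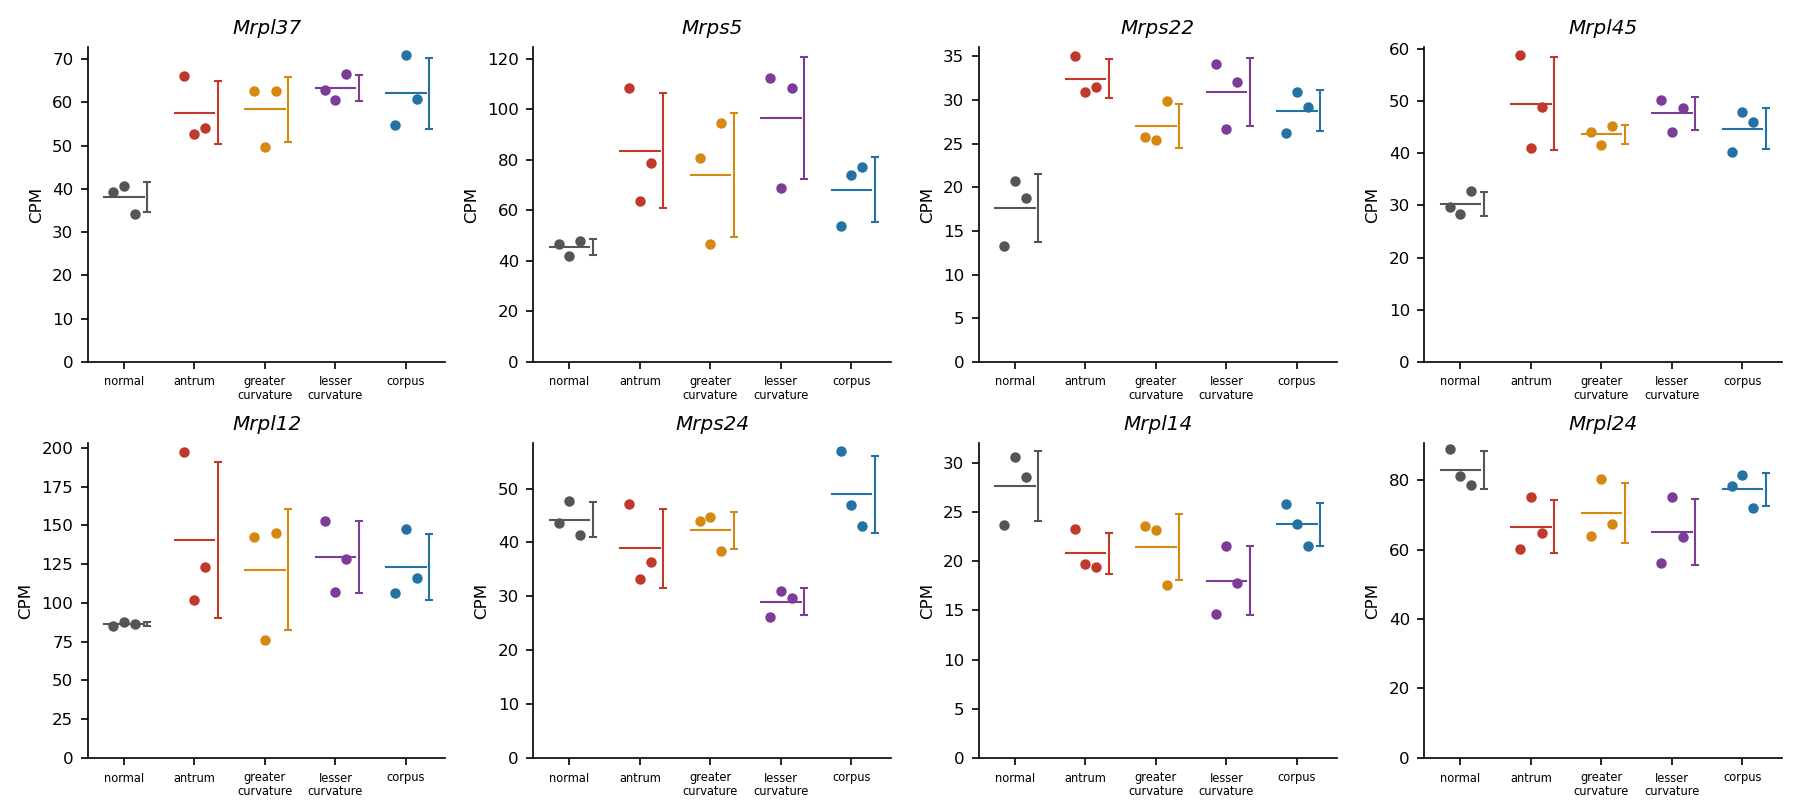
CPM by sample and group for 8 members, with points for samples, a horizontal line for the group mean and a bar for ± SD (n = 3), every axis starting at 0. Mrpl37, Mrps22 and Mrpl45 have every tumor above every normal, greater curvature 2 is the lowest tumor for Mrps5 and Mrpl12, and the 3 lesser curvature tumors lie lowest for Mrps24.

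The 5 lowest changes were those of Mrpl14, Mrpl55, Mrps21, Mrpl43 and Mrpl24, from -0.40 to -0.25, and none was called. Mrpl14, a bacterial homolog, was 23.7, 30.6 and 28.6 CPM in normals and 14.6 CPM (lesser curvature 1) to 25.9 CPM (corpus 1) in tumors. Of the tumors 10 lay below all normals (edgeR adjusted p = 0.0542). It was called lower without 2 of the libraries in turn (edgeR adjusted p down to 0.0360) and without greater curvature 2 and corpus 1 together (edgeR adjusted p = 0.0455). On the TPM scale Mrpl14 averaged 59.2 ± 8.0 (SD, n = 3) in normals and 64.4 ± 5.3 (SD, n = 12) in tumors, the other direction. The same turn of sign on the TPM scale held for all 5.

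Mrps36 carries a ribosomal name but is known as a subunit of the oxoglutarate dehydrogenase complex of the citric acid cycle. Its mean was 17.8 CPM ± 3.3 (SD) over the 3 normals and 18.9 CPM ± 2.9 (SD) over the 12 tumors (edgeR adjusted p = 0.721).

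Levels can be compared between genes on the TPM scale. Over all 15 samples the mean TPM was highest for Mrpl52 (185), Mrpl42 (183) and Mrpl30 (160.0) and lowest for Mrpl23 (12.5), Mrpl1 (14.2) and Mrps30 (19.2). Mrpl52 and Mrpl42 differed by less than the spread between samples (tumors 193 ± 34 SD, n = 12, for Mrpl52). The value of Mrpl23 is uncertain: it had 27 to 222 counts per library while its pseudogene Mrpl23-ps1 had 247 to 779, and the authors' counting could divide reads between such copies. Its change of 0.62 was not called (SE 0.47, edgeR adjusted p = 0.305).

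Members that overlap another gene on the opposite strand are uncertain as well, since the sources used here do not give whether counting used strand. Exons of 20 members overlapped such a gene. Mrps11 and Mrpl46 overlap each other, with changes of 0.66 (edgeR adjusted p = 0.0237) and -0.05 (edgeR adjusted p = 0.740). Mrpl43 overlaps Twnk, the mitochondrial DNA helicase, with changes of -0.25 (edgeR adjusted p = 0.107) and 1.56 (edgeR adjusted p = 0.0115). Mrpl19, the member with the highest change, overlaps Gcfc2.

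Transcript length was larger among the called members. The median length of coding transcripts in GENCODE M21 was 1443 bases over the 24 called members and 892 bases over the 54 others. Among members shorter than 800 bases 2 of 25 were called (8%), from 800 to 1200 bases 5 of 18 (27.8%), from 1200 to 2000 bases 9 of 17 (52.9%), from 2000 to 4000 bases 6 of 15 (40%) and from 4000 bases on 2 of 3. Over all tested genes the shares in these 5 classes were 14%, 16.5%, 16.4%, 17.1% and 17.6%. Across the 78 members the log2 change and the length had a Spearman correlation of 0.29, against 0.02 across the 15523 tested genes with a length. Genes are not independent replicates, and all members share the same libraries.

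**Figure D4:**
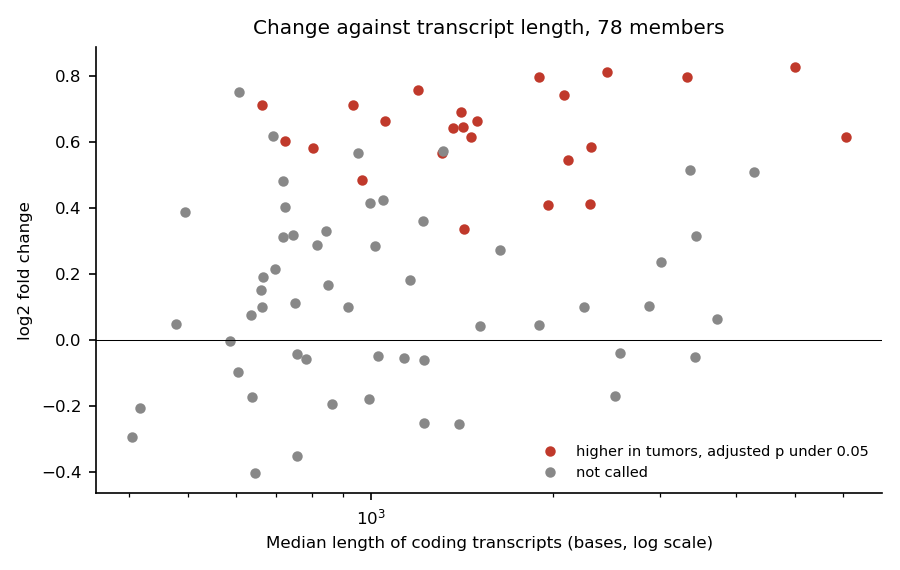
Log2 fold change in all tumors against normals (vertical) against the median length of coding transcripts in bases (horizontal, log scale) for the 78 members, red where called higher. Below 800 bases 2 of 25 points are red, and between 1200 and 2000 bases 9 of 17.

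By site, the members' median change lay between 0.25 and 0.31, and the counts of calls are given beside those over all genes. In antrum tumors 9 members (11.5%) were called higher, where 9.59% of tested genes were, and 0 lower, where 5.08% were. In greater curvature tumors 4 members (5.13%) were called higher, where 6.5% of tested genes were, and 0 lower, where 2.76% were. In lesser curvature tumors 19 members (24.4%) were called higher, where 18.2% of tested genes were, and 4 lower (5.13%), where 15.3% were. In corpus tumors 1 member (1.28%), Mrpl37, was called higher, where 2.35% of tested genes were, and 0 lower, where 1.19% were. Beside the counts of 0, at an unadjusted p under 0.05 the lower members numbered 1 in the antrum, 0 in the greater curvature and 0 in the corpus, and DESeq2 called none lower in these 3 sites. The median changes were 0.29, 0.25, 0.31 and 0.28 in this order of sites. The 4 comparisons share the 3 normals and are not independent.

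Called higher in all 4 sites was Mrpl37, with log2 changes of 0.60 (antrum), 0.62 (greater curvature), 0.73 (lesser curvature) and 0.71 (corpus). Mrpl3, Mrpl45 and Mrpl50 were called higher in 3 sites, 5 members in 2 and 10 members in 1. The shares of all tested genes called in these numbers of sites were not counted. These overlaps therefore cannot be set against those of other genes. The site counts leaned on single libraries, and the share of all tested genes called higher, given here in parentheses, moved with them. The antrum count was 0 without antrum 1 (2.01%), 2 without antrum 3 (3.15%), 1 to 2 without a normal (1.24% to 3.19%) and 15 without greater curvature 2 (13.1%). The greater curvature count was 19 without greater curvature 2 (15.7%). It was 0 without greater curvature 1, greater curvature 3, lesser curvature 3, corpus 3 or any normal (0.00601% to 4.18%), and 1 without antrum 3, lesser curvature 1, lesser curvature 2 or corpus 2 (4.22% to 5.32%). The lesser curvature count was 8 without lesser curvature 1 (8.54%), 10 without lesser curvature 3 (9.8%), 11 without normal 2 (11.7%) and 10 without normal 3 (8.98%). The corpus count went from 1 to 5 without greater curvature 2 (5.35%), and to 2 without antrum 1 (2.36%) or corpus 1 (4.53%). It was 0 without any normal (0.0361% to 0.65%) and without 6 of the tumors in turn (0% to 0.964%).

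The 4 members called lower in lesser curvature tumors were Mrps24, Mrpl52, Mrps21 and Mrpl14. Mrps24, a bacterial homolog, was 43.6, 47.7 and 41.4 CPM in normals and 26.1, 31.0 and 29.8 CPM in the lesser curvature tumors, all 3 below all normals. The antrum tumors were 47.2, 33.3 and 36.3 CPM, the greater curvature tumors 43.9, 44.6 and 38.3 CPM, and the corpus tumors 56.9, 46.9 and 43.0 CPM, which overlap the normals. The log2 change of Mrps24 in the lesser curvature was -0.61 (SE 0.17, edgeR adjusted p = 0.0187). The changes of Mrpl52, Mrps21 and Mrpl14 there were -0.60 (SE 0.20), -0.58 (SE 0.16) and -0.62 (SE 0.19), with edgeR adjusted p = 0.0370, 0.0214 and 0.0302. Without lesser curvature 1 or without lesser curvature 3 none of the 4 was called, without normal 2 only 1 and without normal 3 only 2, where 4.49%, 4.92%, 10.5% and 7.94% of all tested genes were called lower. On the TPM scale all 4 had a positive change in the lesser curvature, from 0.078 to 0.25.

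The test among the 4 tumor sites called no member and 0% of the 16224 tested genes, and DESeq2's likelihood ratio test called no member. At an unadjusted p under 0.05 it held 2 members and 947 of all genes, and the smallest adjusted p among members was 0.746. The 2 members were Mrps24 (unadjusted p = 0.00518 by the edgeR F test) and Mrps21 (unadjusted p = 0.0204 by the edgeR F test), followed by Mrpl52.

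Most members moved together across samples. The correlation of each member's log2 CPM with the mean of the other members had a median of 0.76 over the 15 samples and 0.76 over the 12 tumors, and 58 of 78 members were above 0.5. Below 0 were 11 members, of which 10 had a negative change, with Mrpl24 lowest at -0.70, followed by Mrpl14 (-0.46) and Mrpl52 (-0.43). Over the 12 tumors 5 members were below 0, with Mrpl24 again lowest at -0.57. Mrpl24 was lowest in lesser curvature 1 (56.2 CPM), the lowest tumor for 12 members. It was 80.2 CPM in greater curvature 2, the lowest tumor for 42 members. These correlations are descriptions, since all members share each library's depth and scaling. The share of all tested genes above 0.5 was not counted, and some non-members reached 0.98.

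The non-members most like the family, by the correlation of log2 CPM with the members' mean over 15 samples, were Glrx5 (0.98), Rnaseh2c (0.98), Sf3b5 (0.97), Rpl7a (0.96) and Btf3 (0.96). Glrx5 makes mitochondrial iron-sulfur clusters, Rnaseh2c is a subunit of ribonuclease H2, Sf3b5 a splicing factor, Rpl7a a cytosolic ribosomal protein and Btf3 a partner of nascent chains. Over the 12 tumors alone the 5 values were 0.94 to 0.97. Against normals Rnaseh2c, Sf3b5 and Btf3 were called higher (log2 changes of 0.88, 0.62 and 0.61, edgeR adjusted p = 0.0464, 0.0370 and 0.0325), each losing the call without 6 or more of the libraries in turn, and Glrx5 (edgeR adjusted p = 0.0523) and Rpl7a (edgeR adjusted p = 0.0978) were not. Both were called without greater curvature 2 and corpus 1 (edgeR adjusted p = 0.0122 and 0.0224).

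Other parts of mitochondrial translation had mixed counts in all tumors against normals on the CPM scale, and more calls higher on the TPM scale. On the CPM scale 16.2% of all tested genes were called higher and 15.7% lower. Without greater curvature 2 and corpus 1 these shares were 21.7% and 22%. On the TPM scale limma called 37.3% of all genes higher and 3.58% lower. Of 5 mitoribosome proteins under other symbols 2 were called higher, Gadd45gip1 (0.80) and Ptcd3 (1.25, lost without normal 2 or normal 3), while Chchd1 was not (0.72, edgeR adjusted p = 0.0550). Called higher were 4 of the 5 without greater curvature 2 and corpus 1, and 5 on the TPM scale. Of 24 assembly and ribosomal RNA factors 6 were called higher and 2 lower, or 7 and 2 without greater curvature 2 and corpus 1. The TPM scale gave 16 called higher and none lower (23 of 24 positive, median 0.76). The GTPase Noa1 rose by 1.55 (SE 0.30, edgeR adjusted p = 0.00485) and Fastkd2 by 0.63 (SE 0.13, edgeR adjusted p = 0.00611). Mpv17l2, an inner membrane protein linked to assembly, fell by 1.09 on the CPM scale (SE 0.19, edgeR adjusted p = 0.00304), and its change was -0.43 on the TPM scale (limma adjusted p = 0.0861).

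Of 13 translation factors 1 was called higher and none lower by edgeR or DESeq2. Over all tested genes edgeR called 16.2% higher and 15.7% lower, and DESeq2 called 22.2% and 19.2%. Without greater curvature 2 and corpus 1 the factors called were 3 and 1 (21.7% and 22% of all genes). On the TPM scale they were 10 and 0 (37.3% and 3.58% of all genes), with all 13 positive. The called factor was the elongation factor Tsfm (0.66, edgeR adjusted p = 0.0171), lost without normal 2 or normal 3, while Gfm1 (0.41, edgeR adjusted p = 0.0592) and Tufm (0.44, edgeR adjusted p = 0.0705) were not called. Of 20 mitochondrial tRNA synthetases 4 were called higher and 1 lower (6 and 1 without greater curvature 2 and corpus 1, and 14 and 0 on the TPM scale), with Yars2 at 1.32 (SE 0.20, edgeR adjusted p = 0.00208) and Tars2 at 0.74 (edgeR adjusted p = 0.0104). Of 10 genes of mitochondrial DNA and RNA synthesis 3 were called higher, namely Lrpprc (0.89, SE 0.20, edgeR adjusted p = 0.00870), Twnk (1.56, lost without normal 2 or normal 3) and Polg (0.41, lost without normal 1 or normal 3). The count was 7 of 10 without greater curvature 2 and corpus 1, and 9 on the TPM scale.

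The messenger RNAs that the mitoribosome translates were lower in tumors on the CPM scale. Of 13 mitochondrially encoded mRNAs 8 were called lower, where 15.7% of all tested genes were. None was called higher by edgeR or DESeq2, where 16.2% and 22.2% of all tested genes were. The 13 mRNAs had a median log2 change of -0.84. Their summed level was 120264, 74801 and 68997 CPM in the normals and 33975 to 64555 CPM in tumors, with all 12 tumors below all normals. Named by their p, mt-Nd4 fell by 1.20 (SE 0.24, edgeR adjusted p = 0.00574), mt-Nd5 fell by 1.37 (SE 0.28, edgeR adjusted p = 0.00576) and mt-Cytb fell by 1.12 (SE 0.24, edgeR adjusted p = 0.00664). Normal 1 had the highest sum, and without it 1 of the 13 was called lower (7.96% of all tested genes). The count was 9 without greater curvature 2 and corpus 1 (22% of all tested genes). On the TPM scale 1 of the 13 was called lower, the median was -0.27, and it lay 0.71 below that of all genes, against 0.80 below on the CPM scale. The summed parietal markers were also highest in normal 1 and below all normals in 11 of 12 tumors. Parietal cells are known for dense mitochondria, and the part of these lower marker sums was not tested. The mitochondrial ribosomal RNAs were not analysed here.

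Nuclear genes of the respiratory chain and ATP synthase, the partners of those proteins, had no call higher and 31 of 79 called lower, with a median of -0.33. Over all tested genes 16.2% were called higher and 15.7% lower. DESeq2 called 39 of these nuclear genes lower and none higher, where it called 19.2% and 22.2% of all tested genes. Subunits of complex I led by p: Ndufa6 fell by 0.93 (SE 0.12, edgeR adjusted p = 0.000913), Ndufv3 fell by 0.93 (SE 0.16, edgeR adjusted p = 0.00312) and Ndufa1 fell by 0.89 (SE 0.15, edgeR adjusted p = 0.00315). The count called lower was 15 without normal 1 (7.96% of all tested genes) and 14 without normal 2 (9.26%). It was 35 without greater curvature 2 and corpus 1 (22%), with 1 called higher (21.7%). On the TPM scale 1 was called lower and 7 higher and the median was 0.24, so the direction turned with the scaling, while it remained 0.19 below the median of all genes.

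Of 14 general mitochondrial genes 3 were called higher and 4 lower on the CPM scale, or 5 and 4 without greater curvature 2 and corpus 1. The shares of all tested genes were 16.2% and 15.7%, or 21.7% and 22% without these libraries. The TPM scale had 10 called higher and none lower (11 of 14 positive, median 0.78). The chaperone Hspd1 rose by 1.42 (SE 0.28, edgeR adjusted p = 0.00510), while Vdac2, a channel of the outer membrane, fell by 0.82 (SE 0.19, edgeR adjusted p = 0.00985) and Pdha1, of pyruvate dehydrogenase, fell by 0.80 (SE 0.20, edgeR adjusted p = 0.0129). The TPM scale gave -0.34 for Vdac2 (limma adjusted p = 0.203) and -0.27 for Pdha1 (limma adjusted p = 0.187). Cytosolic ribosomal proteins, taken by symbol, had 8 of 87 called higher, where 16.2% of all tested genes were, with a median of 0.49. None was called lower by edgeR or DESeq2, where 15.7% and 19.2% of all tested genes were. Of the 87, 69 were called higher on the TPM scale and 84 had a positive change. That list also took in Rpl7l1 and Rps19bp1, which are not ribosomal proteins, and without them 6 of 85 were called, Rpl12 (1.28, lost without normal 2 or normal 3) among them. Their count was 1 to 2 without any 1 normal, where 6.89% to 10.7% of all tested genes were called higher. It was 45 of 87 without greater curvature 2 and corpus 1 (21.7% of all tested genes). Their summed level was 31431 to 36892 CPM in normals and 32322 to 68419 CPM in tumors.

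**Figure D5:**
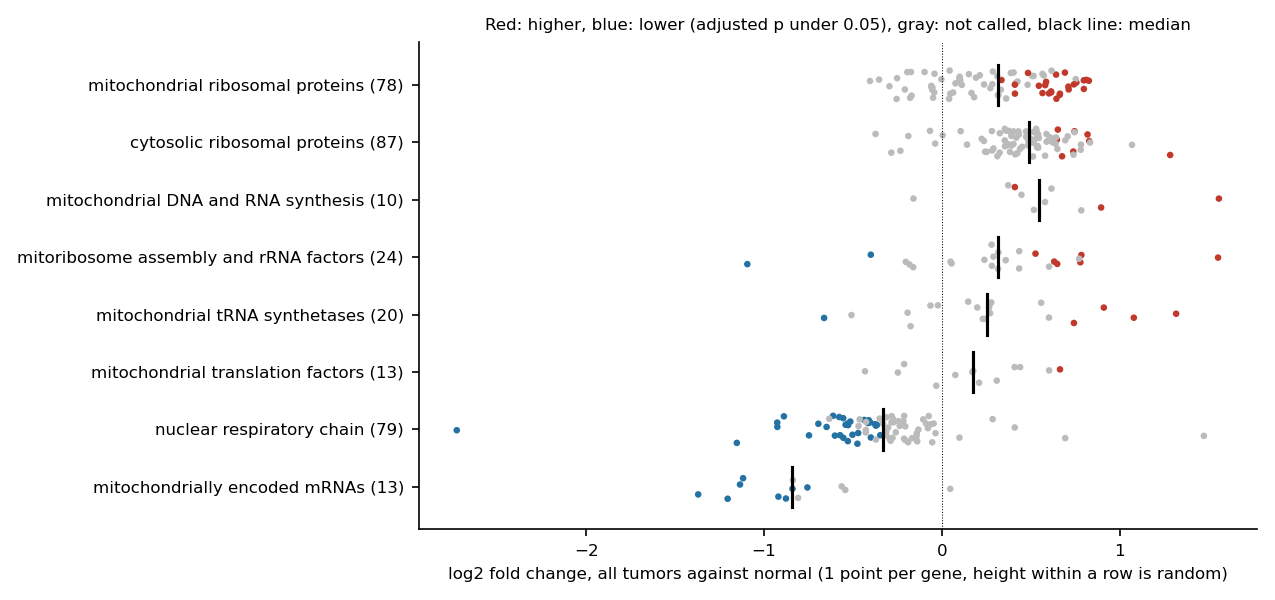
Log2 fold change in all tumors against normals for each tested gene of 8 lists, with the number of genes in parentheses, red where called higher, blue where called lower, gray where not called, and a black line at the median. The median is 0.31 for the mitochondrial ribosomal proteins, 0.49 for the cytosolic ribosomal proteins, -0.33 for the nuclear respiratory chain and -0.84 for the mitochondrially encoded mRNAs.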

How the data were processed

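RNA of 15 samples was measured, in 5 groups of 3 taken from the labels. Per the submitters' processing notes, bcl2fastq 2.19, kallisto 0.44.0, sleuth, DESeq2 and GRCm38.p6 are named, with no role or order. The count table the authors deposited holds whole-number estimated counts per gene, which were fitted as given. The authors deposited a second table under the name FPKM, whose columns each sum to 1e+06. It was therefore taken as TPM made by the authors, although the design had assumed FPKM.

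Counts were fitted in edgeR 4.0.16 (R 4.3.3): filterByExpr with a minimum count of 10, TMM scaling, and 1 robust quasi-likelihood model of all 15 samples by group. Contrasts were the mean of the 4 tumor groups against normal, each site against normal, and an F test among sites. P-values were adjusted after Benjamini and Hochberg over all 16224 tested genes, and a gene was called at a value under 0.05. SE is a standard error of the log2 change derived from the edgeR F test, as the absolute change over the square root of F. Log2 CPM used a prior count of 2. The pipeline was tested on simulated data. Deviations from group means correlated above 0.1 in all 3 same-numbered pairs of normal with antrum (0.37 to 0.59). The same held for normal with lesser curvature (0.24 to 0.40). Some unlike-numbered pairs also lay above 0.1, at 0.34 for normal 2 with antrum 3 and 0.21 for normal 3 with lesser curvature 2. These values therefore cannot show that the numbers pair the samples, and the main fit used no pairing. Library totals of 7957165 to 21564972 counts set the counting precision.

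The members and the lists were chosen with earlier results of these data known. Named members are the 10 highest and 5 lowest changes, the 3 smallest p among sites, 10 fixed for their role (Mrpl12, Mrps12, Mrps18a, Mrps18b, Mrps18c, Mrps30, Mrps36, Mrpl44, Mrpl45 and Mrpl58) and the 3 highest and 3 lowest mean TPM. From each related list, up to 3 genes with the smallest p were named, and the 5 non-members most correlated with the members; 1 gene named by this rule is not reported here. Other genes were picked after their values were seen. Markers of enteric neurons and glia (1 of 8 tested called higher, 4 lower), immune cells (1 of 7 higher), squamous epithelium (6 of 10 lower) and pancreatic acinar cells (1 of 6 lower) were also read. Over all tested genes 16.2% were called higher and 15.7% lower. The squamous sum was 2.13, 6898 and 1.83 CPM in the normals, high in normal 2 alone, with a tumor median of 47.5 CPM. The acinar sum was 132 to 155 CPM in normals and 1.67 to 1683 CPM in tumors. The part of these cells in the results was not tested. Coordinates and lengths are from GENCODE M21 and promoters from RefSeq, both GRCm38. Alternatives replaced TMM by the size factors of DESeq2, replaced edgeR by DESeq2 1.42.0 or by limma 3.58.1 on log2(TPM + 1) (genes at a TPM of 1 or more in 3 samples), dropped the filter, added a replicate block, fitted only the groups compared, tested against a 1.5-fold change, or left out libraries.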

Additional observations from a re-analysis of the deposited data

How the results depend on the processing

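The direction of the members' median change against normal held under every alternative run. For all tumors the count of members called higher was 63 with limma on log2(TPM + 1), where 37.3% of all genes were called higher, and 0 against a 1.5-fold change, where 5.07% were. The count called lower was 4 with DESeq2 (19.2% of all genes) and 1 without greater curvature 2 and corpus 1 (22%). For antrum, greater curvature, lesser curvature and corpus tumors in this order, the members called higher numbered 19, 16, 30 and 10 with DESeq2 (16.4%, 15.1%, 23.2% and 8.12% of all genes), and 46, 31, 65 and 7 with limma on log2(TPM + 1) (24.3%, 19%, 42.5% and 2.66%). A test against a 1.5-fold change called 0 in each of the 4 sites (2.03%, 0.943%, 7.01% and 0.0431% of all genes). Fits of the compared groups only called 0 in the antrum, greater curvature and corpus (4.67%, 0.0267% and 0.94% of all genes). Without greater curvature 2 and corpus 1 the counts were 19 (antrum), 22 (greater curvature) and 13 (corpus), where 14.6%, 16.8% and 9.48% of all genes were called higher. With no filter on low counts they were 0 in the greater curvature (3.05% of all genes) and 0 in the corpus (0.886%). The 4 members called lower in the lesser curvature became 2 with no filter (8.15% of all genes) and 1 in the fit of the compared groups (14.3%). They became 0 with limma on log2(TPM + 1) (4.47%) and 0 against a 1.5-fold change (3.78%). The causes of these differences were not tested.

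With a block for the replicate number, 2 members were called higher in the greater curvature (6.07% of all genes) and 0 in the corpus (1.54%). The other counts of members stayed within 1.5 times. In the antrum and the lesser curvature the block called 10 and 19 members higher (9.81% and 19.8% of all genes). In the lesser curvature it called 5 lower (19.5%). Deviations from group means correlated above 0.1 in 15 of 18 same-numbered pairs without corpus and in 1 of 12 with it. Whether the numbers pair samples is not known, since unlike-numbered samples also correlated.

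Leaving out 1 library at a time gave 7 to 32 members called higher in all tumors (6.89% to 20.5% of all genes). Called lower there were 0 to 1 (7.96% to 21.1%). The members called higher numbered 0 to 15 in the antrum (1.24% to 13.1%) and 0 to 19 in the greater curvature (0.00601% to 15.7%). In the lesser curvature 8 to 25 were called higher (8.54% to 20.4%) and 0 to 5 lower (4.49% to 19.2%). In the corpus 0 to 5 were called higher (0% to 5.35%), and 0 were called among sites. Parentheses hold the lowest and highest share over these fits.

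With limma on log2(TPM + 1) the sign turned in all tumors for Mrpl24 (0.23), Mrpl43 (0.29), Mrps21 (0.26), Mrpl55 (0.18), Mrpl14 (0.12), Mrps24 (0.41), Mrpl52 (0.34), Mrps18c (0.44) and Mrpl58 (0.40), and in the lesser curvature for Mrps24 (0.25), Mrpl52 (0.13), Mrps21 (0.20) and Mrpl14 (0.078). The change of Mrps36 ranged from -0.019 to 0.24 without 1 library, and was negative without normal 1. Each group rests on 3 samples, and every member had 10 or more counts in every library, so depth left no member untested.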
